A study of Mus musculus with 4 samples.

Results

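Matrix metalloproteinases, their tissue inhibitors and the ADAMTS enzymes were examined in C3H10T1/2 cells, a mouse mesenchymal stem cell (MSC) line. The members were taken by name alone, as every gene whose symbol is Mmp, Timp, Adamts or Adamtsl followed directly by a number. This gave 51 of the 54532 genes in the count table, namely 23 Mmp, 4 Timp, 19 Adamts and 5 Adamtsl genes. Every library came from this one line after siRNA transfection for 48 h. The group called control received control siRNA and siDNMT1 received DNMT1 siRNA, both without induction. OB (control siRNA) and siDNMT1_OB (DNMT1 siRNA) were cultured for 3 days in osteoblast (OB) medium with L-ascorbic acid at 50 µM, β-glycerophosphate at 10 mM and dexamethasone. No uninduced library is described as kept in culture for those 3 days. The OB medium and the time in culture therefore cannot be told apart, and induction below stands for both together. Each group held 1 library, so no difference below has a replicate check, and the intervals cover counting error only.

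MMPs are zinc endopeptidases that are made as inactive proenzymes and together can degrade most proteins of the extracellular matrix, collagens included. TIMPs block the active site of these enzymes and also serve other purposes, as TIMP2 does when it helps the membrane-bound MMP14 to activate the gelatinase MMP2. ADAMTS enzymes cut proteoglycans such as aggrecan and versican or remove the N-terminal propeptide of procollagens, and ADAMTS-like proteins share their layout but lack the protease domain. In bone, osteoblasts and osteoclasts use these enzymes to lay down and remodel the collagen matrix.

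The libraries held between 22296046 and 27367792 counts. Dnmt1, the targeted gene, had 7195 counts in control and 3375 in siDNMT1, against 1931 in OB and 2492 in siDNMT1_OB, so the library labelled siDNMT1_OB held no less of it than OB. All directions between those libraries carry this limit. Of 6 mesenchymal markers, Col1a1, Col1a2, Vim and Pdgfrb had at least 7643 counts in every library, Thy1 had 541 to 1322 and Ly6a 1812 to 3931. Ly6a was called lower in siDNMT1 than in control and Thy1 higher in siDNMT1_OB than in siDNMT1, as were Ibsp (3 against 17 counts) and the macrophage marker Csf1r (6 against 21). Of the osteoblast markers, Runx2 had 1644 to 2459 counts, while Alpl, Sp7 and Bglap had at most 8 in any library and Ibsp at most 17. The summed level of 5 macrophage markers was 2.25 to 3.27 CPM, the counts scaled to library size, and that of 4 endothelial markers 2.25 to 7.81 CPM, most of it from Tek. Of 4 epithelial markers, summed at 0.310 to 1.03 CPM, Cdh1 was called lower in OB than in control (25 against 7 counts). Their part in the results was not tested. In bulk RNA, fewer cells of a type and less RNA per cell cannot be told apart.

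The members fell into a detected and an almost silent group. No count was found in any library for 9 members, 8 members had a highest count of 1 to 3, 4 had a highest count of 4 to 9, and the other 30 reached at least 10. A count of 0 was taken to allow a level of up to 3 counts, the floor used for folds against libraries at 0. This corresponded to 0.111 CPM in control and 0.117 in siDNMT1, against 0.133 in OB and 0.112 in siDNMT1_OB. Over libraries with 1 to 3 counts, ratios are given with their counting intervals. Much of the silent group lay together on chromosome 9, from 7272514 to 7699585 (GRCm38). Over these 427 kb stood 10 Mmp genes in the order Mmp13, Mmp12, Mmp1b, Mmp3, Mmp1a, Mmp10, Mmp8, Mmp27, Mmp20 and Mmp7. They include the 4 genes grouped here as interstitial collagenases, a class named for cutting fibrillar collagen. They also include 2 of the 3 stromelysins, the matrilysin Mmp7, the macrophage elastase Mmp12 and the enamel protease Mmp20. The whole cluster had 2 counts in control and 1 in siDNMT1, against 1 in OB and 2 in siDNMT1_OB. Mmp13, a collagenase known from osteoblasts and hypertrophic chondrocytes, held 0, 1, 0 and 2 of them in that order. Outside the cluster, Adamts3 and Adamts19 were at 0 in all libraries, and Adamts8, Adamts13, Adamts18, Adamts20 and Adamtsl2 had at most 2 counts in any library. Mmp9, the gelatinase of osteoclasts and leukocytes, had 3, 1, 3 and 4 counts, and Mmp21 had 4, 3, 0 and 2.

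The promoters of silent and of abundant members were set side by side, since DNMT1 methylates CpGs and AP-1 is a known activator of genes of the cluster. The RefSeq table (GRCm38.p6) gave the 250 bases before the start for 36 of the 51 members. Shown are 3 abundant members and then 3 members of the cluster, 5′ to 3′ in the direction of transcription, with the AP-1 letters TGANTCA in capitals. The first 3 windows hold none, and the last 3 hold 1 each. The windows are chr16:85803114-85803363 on the minus strand for Adamts1, and on the plus strand chr14:54431348-54431597 for Mmp14, chrX:20869916-20870165 for Timp1, chr9:7445572-7445821 for Mmp3, chr9:7502092-7502341 for Mmp10 and chr9:7272264-7272513 for Mmp13.
Adamts1: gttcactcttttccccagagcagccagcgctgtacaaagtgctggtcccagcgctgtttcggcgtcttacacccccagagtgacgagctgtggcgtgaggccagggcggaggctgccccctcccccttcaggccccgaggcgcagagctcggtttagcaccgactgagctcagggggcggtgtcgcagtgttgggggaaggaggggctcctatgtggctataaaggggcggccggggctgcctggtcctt
Mmp14: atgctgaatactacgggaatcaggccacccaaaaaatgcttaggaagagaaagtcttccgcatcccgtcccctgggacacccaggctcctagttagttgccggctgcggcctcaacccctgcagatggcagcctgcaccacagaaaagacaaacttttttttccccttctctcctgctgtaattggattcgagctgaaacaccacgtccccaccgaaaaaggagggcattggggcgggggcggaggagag
Timp1: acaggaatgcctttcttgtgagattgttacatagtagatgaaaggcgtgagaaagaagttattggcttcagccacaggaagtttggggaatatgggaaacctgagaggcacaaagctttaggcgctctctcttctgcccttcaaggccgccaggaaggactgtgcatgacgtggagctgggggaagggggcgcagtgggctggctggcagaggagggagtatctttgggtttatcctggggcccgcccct
Mmp3: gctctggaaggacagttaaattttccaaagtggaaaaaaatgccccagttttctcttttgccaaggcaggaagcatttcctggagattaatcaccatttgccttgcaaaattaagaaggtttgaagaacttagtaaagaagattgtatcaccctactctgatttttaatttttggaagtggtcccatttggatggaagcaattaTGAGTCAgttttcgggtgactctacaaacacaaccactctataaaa
Mmp10: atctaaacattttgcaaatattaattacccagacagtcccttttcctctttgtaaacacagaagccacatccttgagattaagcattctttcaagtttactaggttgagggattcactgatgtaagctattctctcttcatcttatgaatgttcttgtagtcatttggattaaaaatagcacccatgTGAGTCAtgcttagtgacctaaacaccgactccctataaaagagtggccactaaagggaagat
Mmp13: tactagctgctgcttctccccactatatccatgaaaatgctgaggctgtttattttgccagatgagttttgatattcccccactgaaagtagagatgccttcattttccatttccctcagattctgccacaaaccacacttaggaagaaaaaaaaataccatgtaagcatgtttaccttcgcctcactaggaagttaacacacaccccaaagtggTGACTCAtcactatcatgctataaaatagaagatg

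The capitals begin 46 bases before the start in Mmp3, 63 in Mmp10 and 35 in Mmp13. On either strand, TGANTCA stood in the windows of 7 of the 10 cluster genes (70%), in none of the 18 windows of members with at least 10 counts, and in 6.75% of all 32841 RefSeq windows of this length. Where RefSeq gives several starts, the one nearest the start in the count table was used, and a second window of Mmp12 also holds these letters. For 32 of the 36 members the start used lay within 100 bases of that in the count table. TATAAA on either strand was likewise found in 7 of the 10 cluster windows, against 1 of the 18 and 12.4% of all windows, and the letters of the motifs cannot overlap. The CpG observed/expected ratio, which is the number of CpGs over that expected from the C and G content, had a median of 0.0517 in the cluster (0 to 0.334), 0.648 in the members with at least 10 counts (0.125 to 0.983) and 0.374 over all windows. The ranges overlapped, with 0.125 in Timp4 and 0.259 in Adamts12, both detected, and Adamts3 had 0.922 and no count. Of the other near-silent members outside the cluster, Adamts18 and Adamts20 had 0.621 and 0.878, and Adamts13 and Adamtsl2 had 0.055 and 0.326. The Adamts20 window belongs to a start 61068 bases from that in the count table. The 15 windows of members with a highest count of 0 to 3, cluster included, had a median ratio of 0.113. TGANTCA stood in 7 of them, all in the cluster. These are matches of letters, and binding and methylation were not analysed here.

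**Figure D1:**
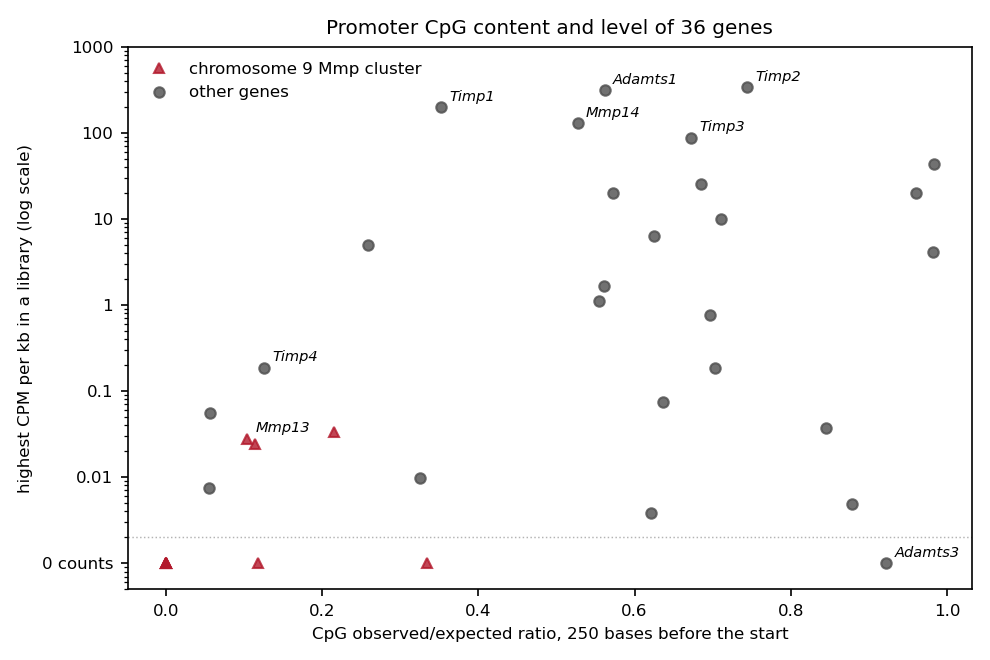
CpG observed/expected ratio of the 250 bases before the start (horizontal) against the highest level in any of the 4 libraries, in CPM per kb of exon on a log scale (vertical), for the 36 members with a RefSeq window. Red triangles are the 10 genes of the chromosome 9 Mmp cluster, of which those at 0 on the horizontal axis overlap, and grey circles the others; the cluster lies between 0 and 0.334 and at or near 0 counts.

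Among the detected members, levels were compared per kb of exon. In control, Timp2 led with 254 CPM per kb, followed by Timp1 with 202, Adamts1 with 106, Mmp2 with 85.7 and Timp3 with 67.3. Mmp14 with 57.9 and Adamts5 with 56.0 came next, and their counting intervals overlapped. In siDNMT1, Timp1 at 150 (145 to 155) and Timp2 at 146 (144 to 149) CPM per kb were not separated by their intervals. In OB the order was Timp2 with 344 CPM per kb, Adamts1 with 316, Mmp2 with 198, Mmp14 with 129, Timp3 with 88.2 and Timp1 with 74.9. Timp1 thus held the second rank in control and the sixth in OB. Together the 51 members took 0.433% of the counts in control and 0.442% in siDNMT1, against 0.706% in OB and 0.554% in siDNMT1_OB.

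**Figure D2:**
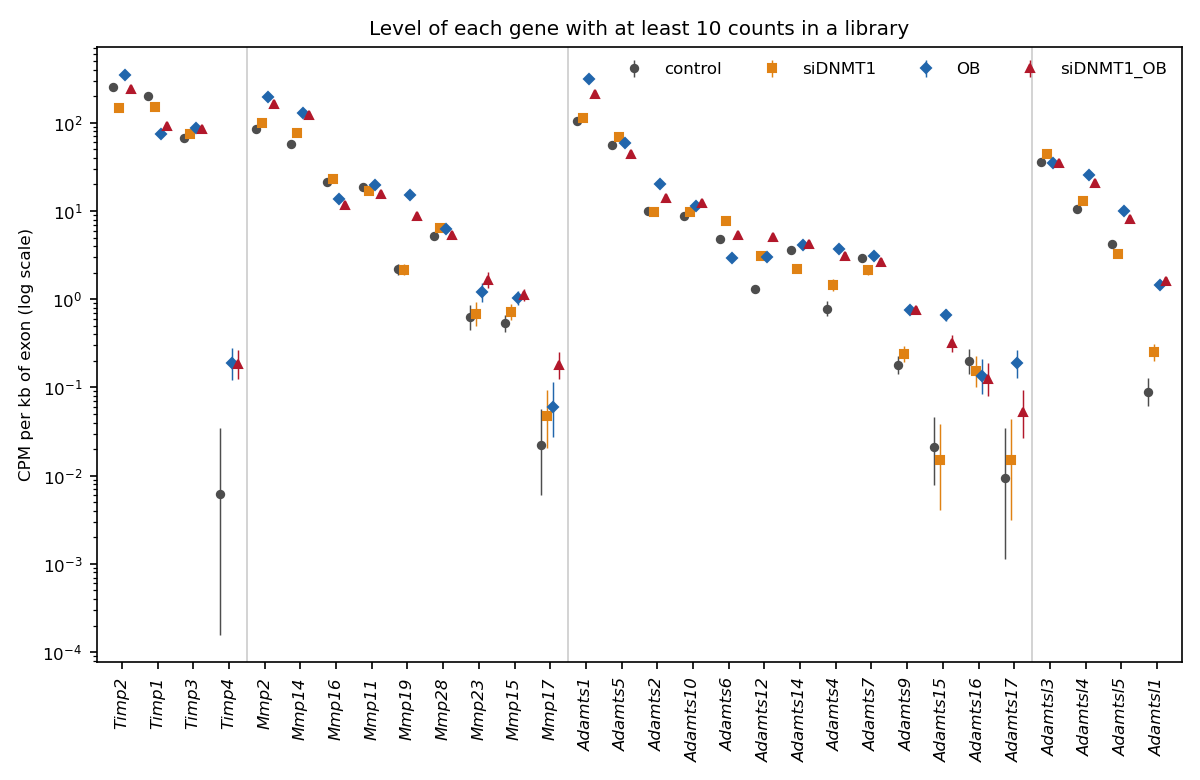
Level of each of the 30 members with at least 10 counts in a library, in CPM per kb of exon on a log scale, with 95% counting intervals, 1 point per library. Timp4 in siDNMT1 had 0 counts and has no point. Timp2 is the highest member in control and OB, and the intervals of Adamts15, Adamtsl1 and Timp4 do not overlap between uninduced and induced libraries.

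For the difference between induced and uninduced cells under control siRNA, OB was compared with control, a difference that includes any added time in culture. A gene was called when it passed both a fold of 2 and an adjusted p of 0.05 in an exact binomial test of its reads, a test that compares 2 libraries and not 2 conditions. Here 15 members were higher, against 7.94% of the 27380 genes with a count, and 1 was lower, against 4.29%. With only genes above a mean CPM of 1 tested, which leaves 27 members, 12 were called higher and 1 lower, against 10.6% and 7.10% of those genes. Their median log2 fold change was 0.91, and it was 0.01 over all genes above that level. One of these 27, Adamts15, passed that filter through the induced libraries alone, and Adamts16 through the uninduced ones. Under DNMT1 siRNA, siDNMT1_OB against siDNMT1 gave 9 members higher, against 4.95% of genes, and 0 lower, against 1.88%, with a median of 0.66. These comparisons share no library, and the difference between their effects was not tested. In both of them 7 members were higher (Adamts4, Adamts9, Adamts15, Adamtsl1, Adamtsl5, Mmp19 and Timp4), where 3.59% of all genes with a count were higher in both, and 0 were lower in both, against 1.21%. With an assumed coefficient of variation of 0.2, Adamts4, Adamtsl5, Mmp17 and Mmp23 lost their calls in siDNMT1_OB against siDNMT1, which leaves 5 members higher in both.

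A second view fitted siRNA and induction as additive terms over all 4 libraries, which leaves 1 residual degree of freedom and assumes the same induction effect under both siRNAs. In edgeR's quasi-likelihood test of the 13233 genes above a mean CPM of 1, 9 members passed an adjusted p of 0.05 and a fold of 2 for induction, 8 higher, against 7.19% of those genes, and 1 lower, against 4.15%. Of the 8, Adamts15 entered the fit through its induced libraries alone. Mmp2, Mmp14 and Adamts2 passed that p with smaller shared changes (log2 0.96, 0.91 and 0.80), and 17 of the 27 members passed it at any fold, against 21.1% of genes.

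**Figure D3:**
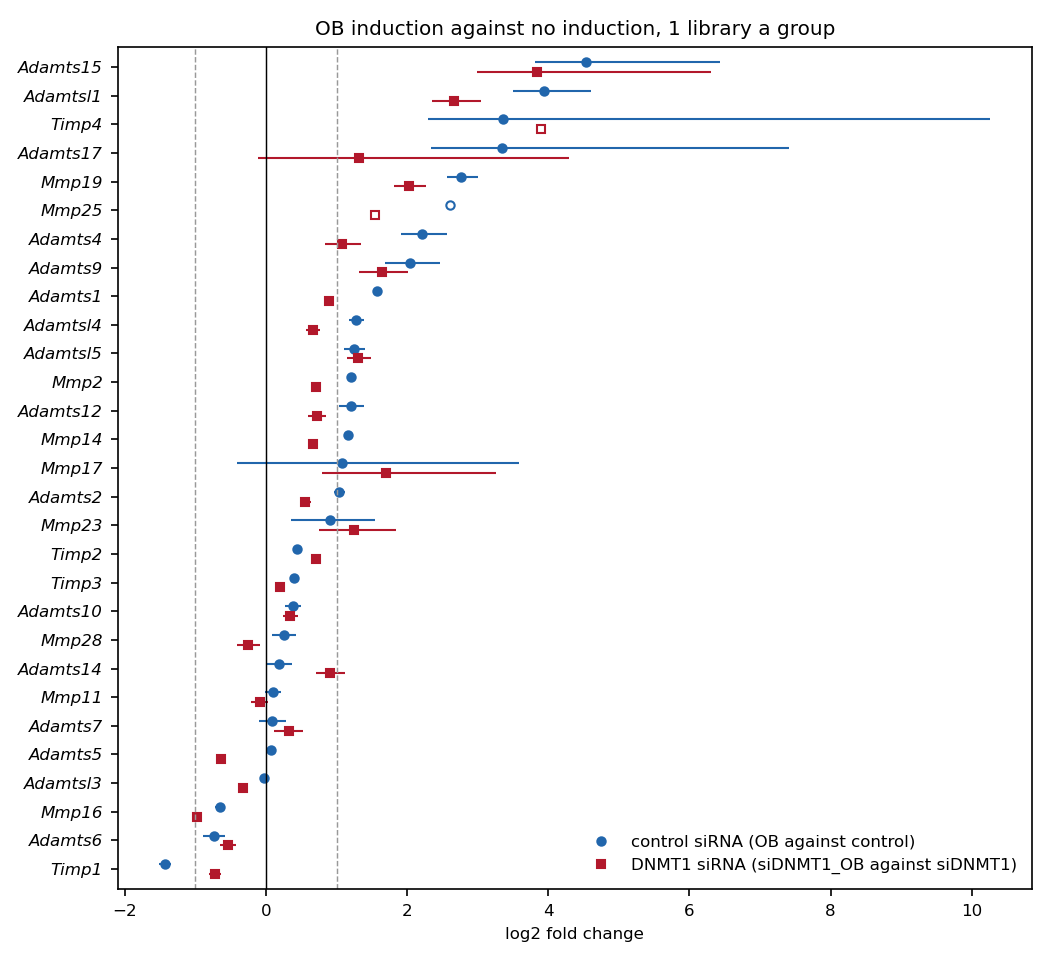
Log2 fold change on OB induction of the 29 named members, under control siRNA (blue circles) and DNMT1 siRNA (red squares), with 95% counting intervals. Open symbols mark comparisons in which a library had 0 counts and no finite interval exists, and dashed lines mark a fold of 2. Under control siRNA, Adamts15 and Adamtsl1 lie farthest to the right and Timp1 farthest to the left.

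Of the 7 proteoglycanases, 4 were called higher in OB than in control, against 7.94% of all genes with a count, and 3 in siDNMT1_OB than in siDNMT1, against 4.95%. Adamts15, which cuts versican, had 6 counts in control and 4 in siDNMT1, against 156 in OB and 88 in siDNMT1_OB. Both induced libraries were far above both uninduced ones, 31.2-fold under control siRNA and 21.1-fold under DNMT1 siRNA. With 6 and 4 uninduced counts the log2 counting intervals were wide, 3.81 to 6.43 and 2.99 to 6.30. Adamts1 (chromosome 16, 85793827 to 85803113), which cuts aggrecan and versican, had 15250, 15500, 37931 and 30008 counts in the same library order. It was 2.98-fold higher in OB than in control and 1.85-fold higher in siDNMT1_OB than in siDNMT1, so only the first passed the fold of 2. Adamts4, an aggrecanase, rose from 102 counts in control to 400 in OB, and had 180 in siDNMT1 and 400 in siDNMT1_OB. Its log2 fold change on induction was 2.21 (1.92 to 2.56) under control siRNA and 1.08 (0.83 to 1.35) under DNMT1 siRNA, the latter call being lost at that coefficient of variation of 0.2. Adamts9, a versican protease, had 74, 92, 259 and 304 counts and was 4.20-fold and 3.16-fold higher on induction. Adamts5, the other main aggrecanase, did not share this. It had 16389, 19035, 14311 and 12799 counts, with log2 fold changes of 0.07 under control siRNA and −0.64 under DNMT1 siRNA, neither called. Adamts5 lies 53 kb from Adamts1 on chromosome 16 with 1 gene between them, and Adamts15 lies 20 kb from the near-silent Adamts8 on chromosome 9 with 0 between them.

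Of the 5 collagen-processing and COMP-cleaving enzymes, 2 were called higher in OB than in control (7.94% of genes) and 0 under DNMT1 siRNA (4.95%). Adamts2, the main procollagen N-proteinase, had 2501, 2309, 4293 and 3547 counts and a log2 fold change of 1.04 in OB against control, just past the threshold. With scaling factors taken from every gene with a count, an alternative chosen after seeing the data, this was 0.997 and no longer called, and the call was lost with an assumed coefficient of variation of 0.2. Adamts14, a relative with the same activity, had 509, 296, 482 and 583 counts. Its log2 fold change on induction was 0.18 under control siRNA and 0.91 under DNMT1 siRNA, neither called. Adamts12, which can cut cartilage oligomeric matrix protein (COMP), had 383, 856, 738 and 1477 counts and had log2 fold changes on induction of 1.20 under control siRNA, called, and 0.72 under DNMT1 siRNA. That call was also lost with an assumed coefficient of variation of 0.2. Its relative Adamts7 stayed between 342 and 494 counts in all libraries and was called in no comparison.

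Of the other ADAMTS genes, Adamts17, whose loss disturbs fibrillin matrix, had 2, 3, 33 and 11 counts, a ratio of 19.8 (5.06 to 170) in OB over control. Under DNMT1 siRNA its ratio was 3.51 (0.93 to 19.6), and the read test did not pass. Adamts6 had 1031, 1556, 517 and 1115 counts, and its log2 fold change of −0.73 in OB against control was not called. Adamts10, linked to fibrillin microfibrils as Adamts6 is, had 1285 to 1807 counts and was not called in any comparison. Adamts16 had 21 to 37 counts and was not called either.

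Of the ADAMTS-like genes, 3 of 5 were called higher in OB than in control, against 7.94% of genes, and 2 of 5 under DNMT1 siRNA, against 4.95%. Adamtsl1 (chromosome 4, 85514172 to 86428385) had 31 counts in control and 82 in siDNMT1, against 422 in OB and 554 in siDNMT1_OB. It was 16.3-fold higher on induction under control siRNA and 6.47-fold higher under DNMT1 siRNA. Adamtsl5 had 538, 398, 1070 and 1034 counts, and its log2 fold changes on induction, 1.25 and 1.31, lay close together, although the call under DNMT1 siRNA was lost with an assumed coefficient of variation of 0.2. Adamtsl4, a fibrillin-binding protein, had 1193, 1401, 2417 and 2322 counts, and its log2 fold change was 1.28 under control siRNA and 0.67 under DNMT1 siRNA, where it was not called. Adamtsl3, the most abundant of the family per kb, had 7506, 8721, 6135 and 7291 counts and log2 fold changes of −0.03 and −0.32, neither called, the first of which changes sign under total count and upper quartile scaling.

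Among the MMPs, the gelatinase Mmp2 and its membrane-bound activator Mmp14 shifted by like amounts. Mmp2 had 7837 counts in control and 8529 in siDNMT1, against 15090 in OB and 14546 in siDNMT1_OB. Mmp14 had 9353, 11675, 17439 and 19277 counts. On induction Mmp2 was 2.31-fold and Mmp14 2.24-fold higher under control siRNA, both called, although neither call held with an assumed coefficient of variation of 0.2 between cultures. Under DNMT1 siRNA the values were 1.63-fold and 1.58-fold, neither called. The induced libraries were above the uninduced ones for both genes. Mmp19, which cuts basement membrane proteins, had 209, 196, 1198 and 840 counts and was the MMP with the largest called fold among those with at least 10 counts in every library, 6.87-fold under control siRNA and 4.10-fold under DNMT1 siRNA. Its exons share 22.3% of their length with Tmem198b on the other strand, which had 1021 to 1562 counts, and the library kit does not mark strand, so the share of those reads in the Mmp19 count was not tested.

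The other membrane-bound MMPs did not move as one. Mmp16, a relative of Mmp14, had 5004, 5133, 2656 and 2717 counts. Both induced libraries were below both uninduced ones. The log2 fold changes were −0.65 (−0.72 to −0.58) under control siRNA and −0.98 (−1.05 to −0.91) under DNMT1 siRNA, short of the threshold. These counting intervals do not overlap. The additive edgeR fit, which assumes the same induction effect under both siRNAs, gave a shared −0.82. Mmp15 had 78, 99, 126 and 162 counts and was called in no comparison. Mmp17, which is held to the membrane by a lipid anchor, had 4, 8, 9 and 32 counts with log2 fold changes on induction of 1.08 (−0.41 to 3.58) under control siRNA, where the read test did not pass, and 1.71 (0.79 to 3.27) under DNMT1 siRNA, where it was called but not with an assumed coefficient of variation of 0.2. Mmp25, anchored in the same way, had 0, 0, 9 and 4 counts. Its level in OB was 3.60-fold that of a control library set at the floor of 3 counts. With control at its 0 counts, the lower counting limit on the log2 scale was 1.24. Its call in OB against control was lost at 0.2 as well. Mmp24 had 0, 1, 4 and 3 counts. Mmp23, which is also tied to the membrane, had 40, 41, 64 and 104 counts. Its log2 fold change was 0.91 under control siRNA, not called, and 1.24 under DNMT1 siRNA, called, and this call too was lost at 0.2. The furin-activated Mmp11 (1173 to 1405 counts) and epilysin Mmp28 (548 to 634) were not called in any comparison.

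The inhibitors split. Timp1 (chromosome X, 20870166 to 20874735) had 4866 counts in control and 3411 in siDNMT1, against 1505 in OB and 2159 in siDNMT1_OB, and was the only member called lower on induction under control siRNA. Both uninduced libraries were above both induced ones. Its log2 fold change was −1.43 (−1.52 to −1.35) under control siRNA and −0.72 (−0.80 to −0.64) under DNMT1 siRNA. These counting intervals do not overlap. The additive edgeR fit, which assumes the same induction effect under both siRNAs, gave a shared −1.08. Timp2 had 26878, 14614, 30317 and 25053 counts, and its log2 fold changes on induction, 0.44 and 0.71, were not called. Timp3, the matrix-bound inhibitor that also acts on ADAMTS enzymes, had 14861, 15442, 16246 and 18521 counts. Timp4 had 1, 0, 25 and 29 counts, a ratio of 30.0 (4.91 to 1231) in OB over control. Its level in siDNMT1_OB was 9.25-fold that of a siDNMT1 library set at the floor. With siDNMT1 at its 0 counts, the lower counting limit on the log2 scale was 2.82. Timp4 shares 1.53% of its exon length with Syn2 on the other strand, which had 6, 5, 41 and 29 counts. The part of Syn2 reads in Timp4 was not tested.

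Summed per kb of exon, the MMPs reached 192 CPM in control and 225 in siDNMT1, against 385 in OB and 327 in siDNMT1_OB. The Adamts genes reached 194, 219, 425 and 304, and Adamts1 alone made up 54.5%, 52.0%, 74.4% and 69.6% of that. The inhibitors reached 524, 370, 507 and 416 CPM per kb. The ratio of summed MMPs to summed TIMPs per kb was therefore 0.367 in control and 0.608 in siDNMT1, against 0.758 in OB and 0.785 in siDNMT1_OB. It was lowest in control, and the other 3 libraries were each above 0.6. Per CPM without length the ratios were 0.525, 0.822, 0.798 and 0.861, which puts siDNMT1 above OB, so the order of those libraries depends on the scale. Timp1 made up 38.6% of the inhibitor sum per kb in control and 40.5% in siDNMT1, but 14.8% in OB and 21.8% in siDNMT1_OB. The ratio is one of mRNA and says nothing of active enzyme.

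**Figure D4:**
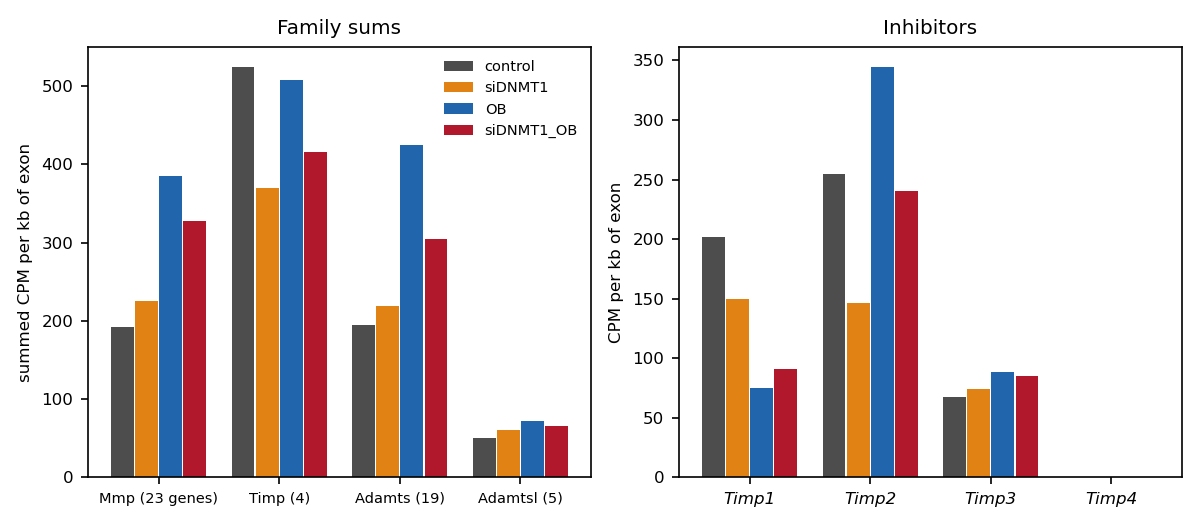
Left, summed level of each family per library in CPM per kb of exon; right, the 4 inhibitors singly, both from 0. Bars are single libraries without error bars. The Mmp and Adamts sums are highest in OB, while Timp1 is lowest there and Timp4 is too low to see.

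To see what DNMT1 depletion did, siDNMT1 was compared with control. Few members were called: 2 higher (1.37% of genes with a count) and 0 lower (1.14%). The higher ones were Adamts12, which went from 383 to 856 counts, 2.37-fold, and Adamtsl1, which went from 31 to 82, 2.80-fold. Neither call held with an assumed coefficient of variation of 0.2 or at a fold of 4. The median over the 27 members above that mean CPM of 1 was 0.14, with 17 of 27 above 0, and the median of all genes above that level was 0.00. Below the threshold but past the counting interval, Timp2 had 26878 counts in control and 14614 in siDNMT1, a log2 fold change of −0.80 (−0.83 to −0.77). Adamts14 had −0.70 (−0.91 to −0.49), Adamts4 0.89 (0.54 to 1.27) and Adamts6 0.67 (0.56 to 0.79). The endothelial marker Tek moved with DNMT1 siRNA, with 51 counts in control and 152 in siDNMT1, and 63 in OB and 203 in siDNMT1_OB, while Pecam1, Cdh5 and Kdr had at most 8 in any library. Its part in the values of the members was not tested.

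After induction, the library labelled siDNMT1_OB was compared with OB, where 1 member was higher (1.52% of genes with a count) and 2 were lower (1.43%). Mmp17 had 32 counts against 9 in OB, with a log2 fold change of 1.42 (0.49 to 2.84). Adamts15 had 88 against 156, with −1.05 (−1.46 to −0.68), and Adamts17 had 11 against 33, with −1.65 (−2.96 to −0.81). These 3 calls too were lost with an assumed coefficient of variation of 0.2 or at a fold of 4. With only genes above a mean CPM of 1 tested, Adamts15 alone was left (lower, against 1.35% of those genes), since Mmp17 and Adamts17 are below it. The median log2 fold change of the 27 members was −0.21, with 9 of 27 above 0, against 0.01 over all genes. Timp2 was again below, with −0.52 (−0.54 to −0.49), and Adamts12 and Adamts6 were again above, with 0.76 and 0.86, none called. No member was called in the same direction in both siDNMT1 comparisons, which share no library, and 0.212% of all genes were higher and 0.168% lower in both. The shared siRNA term of the additive fit draws on both comparisons, and Dnmt1 was not lower in siDNMT1_OB than in OB. In the additive edgeR quasi-likelihood fit, 0 members and 0 of all 13233 genes passed an adjusted p of 0.05 for DNMT1 siRNA, and 4 of 27 members had an unadjusted p under 0.05, against 8.68% of genes. These were Adamts12, Adamts6, Timp2 and Adamts15, with adjusted p of 0.212, 0.229, 0.249 and 0.504.

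**Figure D5:**
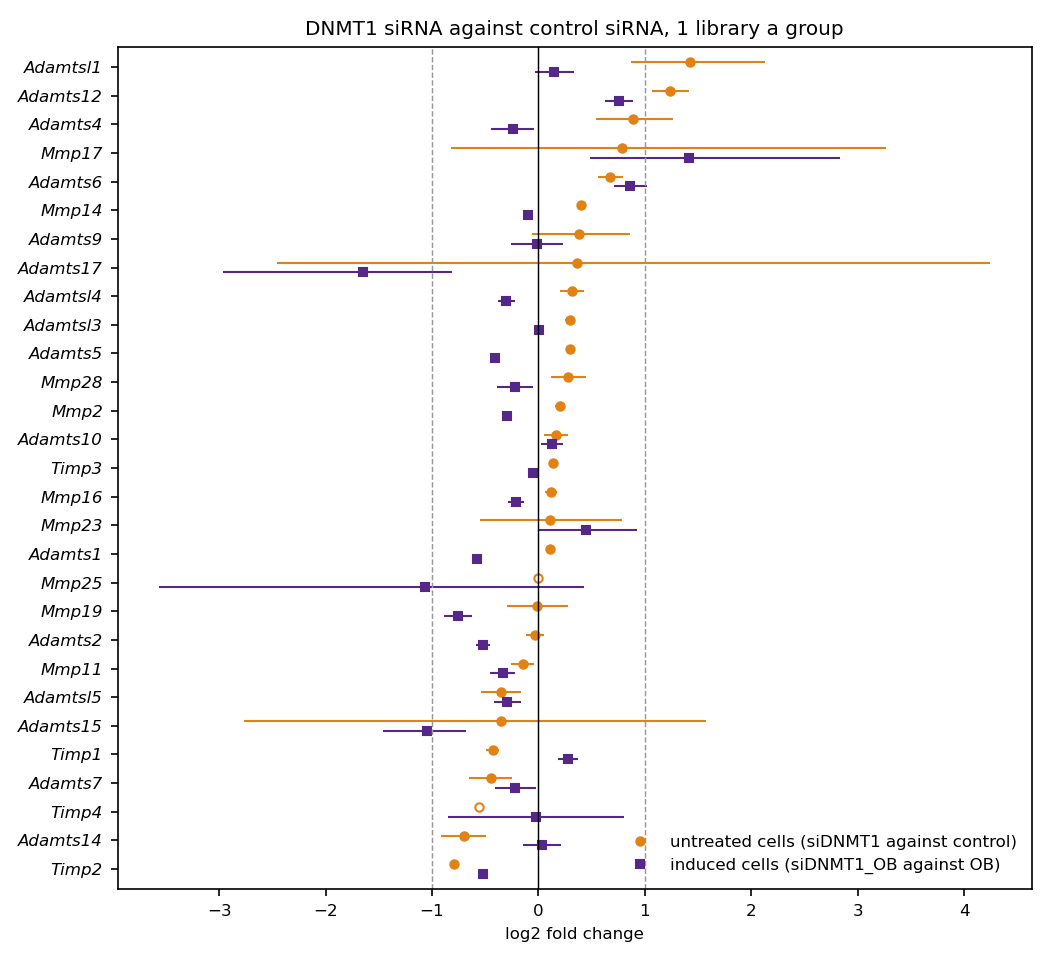
Log2 fold change with DNMT1 siRNA of the 29 named members in uninduced cells (orange circles) and induced cells (purple squares), with 95% counting intervals; open symbols had a library at 0 counts, and dashed lines mark a fold of 2. Adamts12 and Adamts6 lie to the right and Timp2 to the left in both comparisons, while Adamts1, Adamts5 and Mmp2 lie on opposite sides of 0.

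Genes that work with these families were read from lists of 36 genes. In OB against control, 5 were called higher (7.94% of all genes) and 2 lower (4.29%), and in siDNMT1_OB against siDNMT1, 6 higher (4.95%) and 0 lower (1.88%). Of the 5 substrates, 2 were called, both in both induction comparisons. Vcan, which encodes versican, had 14679 counts in control and 13663 in siDNMT1, against 84316 in OB and 55358 in siDNMT1_OB, with log2 fold changes of 2.78 and 1.96 on induction. Comp had 27, 32, 150 and 106 counts, with 2.64 and 1.61, while Acan, which encodes aggrecan, had 0 in all libraries and Bcan and Ncan had at most 4. Adam12, a related metalloproteinase, was called in both induction comparisons (1.44 and 1.26), and the log2 fold changes of others fell on either side of the threshold. Adam15 had 1.01 (called) under control siRNA and 0.85 under DNMT1 siRNA, Mep1a 1.83 (called) and 0.75, and Tll1, a procollagen C-proteinase, 0.94 and 1.42 (called). Plaur, the urokinase receptor, fell by 1.51 on the log2 scale in OB against control. Pcsk6, a proprotein convertase, fell by 1.76 in OB against control and was called higher in siDNMT1_OB than in OB (1.58). Serpinb2 and Spock2 were called on induction under DNMT1 siRNA at no more than 20 counts. Mep1a, a meprin protease, fell by 2.09 in siDNMT1_OB against OB, with 12 counts against 49. None of the 36 was called in siDNMT1 against control, where 1.37% of all genes were higher and 1.14% lower.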

How the data were processed

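Poly(A) RNA was sequenced from both ends in 4 libraries after a TruSeq v.2 preparation, which does not mark strand. The authors deposited 1 table of raw read counts per gene, with exon positions and lengths, made with Trimmomatic, HISAT2 and featureCounts on mm10 per the submitters' processing notes. Tool versions and how reads with several positions were treated are not given in the sources used here. Of the 51 members, all were found in GENCODE M21 and 50 had the same position there.

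From the counts, TMM factors (edgeR 4.0.16, R 4.3.3) were computed over the 13233 genes that reach a mean CPM of 1 and lay between 0.991 and 1.01. Log2 fold changes come from CPM with a prior count of 2, while values given as -fold or as a ratio leave the prior out. Their intervals are exact 95% binomial intervals of the reads without the prior, and those of levels are Poisson intervals. Genes were called at a fold of 2 (the study's size threshold) and a Benjamini-Hochberg adjusted p under 0.05 in a two-sided exact binomial test on each gene's reads, computed in Python 3.11.15 with scipy 1.17.1, over all 27380 genes with a count and with no expression filter. A fold against a library at 0 counts is taken against 3 counts and leaves out the counting error of the other library. Exon lengths are merged exons of each gene, and isoform use can move a level per kb.

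Named members are those called in any comparison or with a mean CPM of at least 5, 29 in all. The members, lists and tests were chosen with earlier results of these data known. One gene of the pathway lists is not reported here. Alternatives were total count, upper quartile and DESeq2 1.42.0 size factor scaling, a filter at a mean CPM of 1, a prior count of 0.5, a fold of 4, an assumed coefficient of variation of 0.2 or 0.4 and an additive edgeR fit. Factors from every gene with a count were added after seeing the data. RefSeq windows covered 36 members, and the other 15 were not searched. No label states a batch or separate cultures within a group.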

Additional observations from a re-analysis of the deposited data

Results flagged for a closer look

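Among the 30 members with a count in all 4 libraries, 10 had a DNMT1 siRNA difference of opposite sign in uninduced and induced cells, with counting intervals clear of 0 under every scaling. Of all genes with a count in all 4 libraries 7.36% met the same rule, and of those with a mean CPM of at least 5, where all 10 members lie, 11.9%. With 1 library a group the difference between the effects was not tested, and it rests on the library labelled siDNMT1_OB, in which Dnmt1 was not lower than in OB. The effect in OB cells minus that in untreated cells, on the log2 scale, was −0.69 for Adamts1, −1.13 for Adamts4, −0.70 for Adamts5, −0.61 for Adamtsl4, −0.50 for Mmp14, −0.33 for Mmp16, −0.50 for Mmp2, −0.50 for Mmp28 and −0.19 for Timp3, all higher with DNMT1 siRNA before induction and lower after it. Timp1 was the reverse, with 0.71 (counting interval 0.59 to 0.82): 4866 counts in control against 3411 in siDNMT1, and 1505 in OB against 2159 in siDNMT1_OB. None of these 10 members was called in either siDNMT1 comparison.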

How the results depend on the processing

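The members called by induction kept their number within 1.5 times under the 3 other scalings, the filter at a mean CPM of 1, a prior count of 0.5 and factors from every gene with a count, an alternative chosen after seeing the data. A fold of 4 left 8 of 16 members in OB against control, 4 of 9 in siDNMT1_OB against siDNMT1, 0 of 2 in siDNMT1 against control and 0 of 3 in siDNMT1_OB against OB. An assumed coefficient of variation of 0.2 gave 0 in both siDNMT1 comparisons (0.241% of all genes in siDNMT1 against control and 0.186% in siDNMT1_OB against OB) and 5 in siDNMT1_OB against siDNMT1 (Adamts15, Adamts9, Adamtsl1, Mmp19 and Timp4; 2.28% of genes). It gave 11 in OB against control (6.65% of genes), where Adamts2, Adamts12, Mmp2, Mmp14 and Mmp25 lost their calls. At 0.4 both siDNMT1 comparisons gave 0, OB against control 2 (Adamts15 and Adamtsl1; 0.533% of genes) and siDNMT1_OB against siDNMT1 1 (Adamts15; 0.234%). The filter at a mean CPM of 1 left 1 of 3 members in siDNMT1_OB against OB, because Mmp17 and Adamts17 lie below it and were not tested. Of the named members' fold changes, 678 of 680 alternative values kept their side of the threshold. The exceptions, both with factors from every gene with a count, were Adamts2 in OB against control (0.997, no longer called) and Mmp16 in siDNMT1_OB against siDNMT1 (−1.01, called). The sign changed in 7 of the 680, in results within 0.03 of 0 on the log2 scale and not called, under total count or upper quartile scaling (Mmp19 in siDNMT1 against control, and Adamtsl3 in siDNMT1_OB against OB and in OB against control) or with factors from every gene with a count (Adamts9 in siDNMT1_OB against OB). The scalings moved the median of all genes by at most 0.05 on the log2 scale. No analysis paired by replicate was possible because each group holds 1 library and the labels give no replicate numbers. The additive fit had siRNA and induction as its only terms. Depth limits members under 10 counts, such as Mmp25 and Mmp9.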
